A study of Mus musculus with 9 samples.

Results

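Lung mRNA expression was examined for 5 genes, *Msx3*, *Fgf23*, *Mrgprg*, *Adgrg7* and *Capn9*, of the 34638 genes in the deposited table. They were chosen by their read counts, which were at or near 0 in control lungs and raised after IL-33 or IL-33 with LM8, so their rise over the control mice is a description of how they were picked and was not tested. Counts of the treated mice entered the choice as well, so calls between the treated groups describe these genes and are no independent test. All 9 mice were wild-type (WT) C57BL/6, with 3 per group, and bulk lung RNA was sequenced in paired ends. Control mice (PBS) received PBS. IL-33 mice received 0.5 µg of recombinant mouse IL-33 into the trachea on each of days 0 to 3. IL-33+LM8 mice received the same IL-33 and, before challenge, 10 mg/kg of LM8, an inhibitor of the adaptor protein MyD88, by the intraperitoneal route. The PBS and IL-33 mice were female, 6 to 8 weeks old, and their lungs were taken on day 4. Age, sex and day of harvest of the IL-33+LM8 mice are not given in the sources used here, and no group received LM8 without IL-33.

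IL-33 is an epithelial alarmin whose receptor, ST2, signals through MyD88 and activates group 2 innate lymphoid cells (ILC2), Th2 cells and other cells of type 2 inflammation. The 5 genes come from unrelated families and are known mainly outside the lung. *Msx3* encodes a homeobox transcription factor of the Msh family, known from the dorsal neural tube of the embryo. *Fgf23* encodes a hormone of osteocytes that lowers phosphate reabsorption and vitamin D activation in the kidney. *Mrgprg* encodes an orphan receptor of the Mas-related family, whose other members are known from sensory neurons and mast cells. *Adgrg7* encodes an adhesion G-protein-coupled receptor known from the intestine. *Capn9* encodes a calpain, a calcium-dependent cysteine protease, known from the digestive tract.

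Between 53877663 and 90607218 reads per mouse were counted on genes. The deepest library of each group (PBS replicate 3, IL-33 replicate 1 and IL-33+LM8 replicate 3) deviated from its group mean in the same direction as those of the other groups, with correlations across genes between 0.647 and 0.672, so results are also given without these libraries. Counts of 3 or fewer in a library were treated as the floor, which covers counting error only. The lung label was checked against markers of lung epithelium and endothelium, whose most abundant gene, *Scgb1a1* of club cells, was at a mean of 21500 FPKM in PBS, 8810 FPKM in IL-33 and 17100 FPKM in IL-33+LM8 lungs. FPKM, which relates reads to gene length and to library depth, is the scale used below wherever levels of different genes are set side by side.

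The DNA before each gene is shown for 3 of the 5 genes, namely *Msx3* and *Mrgprg*, which moved in opposite directions with LM8, and *Fgf23*, which held the most motif matches. Each sequence runs 5′ to 3′ on the strand of the gene from 250 bases before to 50 bases after its RefSeq start, taken from GRCm38.p6, and all 5 genes had such a window of 300 bases. Capitals mark matches, on either strand, to a GATA motif (AGATAA), a STAT motif (TTCNNNGAA), a STAT6 motif (the STAT motif with 1 more free base in the middle) or an AP-1 motif (TGANTCA). The windows lie at chr7:140049039-140049338 on the minus strand for *Msx3*, at chr7:143766944-143767243 on the minus strand for *Mrgprg* and at chr6:127072652-127072951 on the plus strand for *Fgf23*.
Msx3: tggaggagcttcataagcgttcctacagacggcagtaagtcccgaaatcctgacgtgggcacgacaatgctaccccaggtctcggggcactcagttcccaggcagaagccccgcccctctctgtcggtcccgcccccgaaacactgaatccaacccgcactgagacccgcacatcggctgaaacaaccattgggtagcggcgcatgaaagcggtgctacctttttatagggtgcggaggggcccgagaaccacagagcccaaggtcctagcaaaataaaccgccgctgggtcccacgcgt
Mrgprg: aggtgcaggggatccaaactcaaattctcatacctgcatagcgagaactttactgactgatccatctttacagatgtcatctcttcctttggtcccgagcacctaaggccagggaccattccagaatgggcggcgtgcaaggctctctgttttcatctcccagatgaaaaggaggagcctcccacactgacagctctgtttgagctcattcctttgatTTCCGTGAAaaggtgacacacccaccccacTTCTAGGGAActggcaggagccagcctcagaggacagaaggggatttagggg
Fgf23: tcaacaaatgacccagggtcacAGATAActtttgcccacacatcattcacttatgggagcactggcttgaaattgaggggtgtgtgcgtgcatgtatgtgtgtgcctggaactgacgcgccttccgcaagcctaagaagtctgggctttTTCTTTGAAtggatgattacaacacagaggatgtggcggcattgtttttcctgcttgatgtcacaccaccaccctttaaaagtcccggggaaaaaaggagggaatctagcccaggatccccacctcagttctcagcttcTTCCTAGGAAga

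The STAT6 motif was found in 3 of the 5 windows, those of *Fgf23* (TTCCTAGGAA from base 39 after the start), *Mrgprg* (TTCTAGGGAA from base -2, across the start) and *Capn9* (TTCCTTGGAA from base -144). The STAT motif was found in *Fgf23* from base -101, in *Mrgprg* from base -32 and in *Adgrg7* from base -16. GATA matches stood at base -228 of *Fgf23* and base -136 of *Adgrg7*. Over all 32851 windows of that length, 6.95% held the STAT6 motif, 8.30% the STAT motif, 11.2% the GATA motif and 7.81% the AP-1 motif, which none of the 5 held. The *Msx3* window held no match, had a GC content of 60.0% against a median of 52.7% over all windows, and contained 22 CG pairs against a median of 7. These are letter matches in 5 windows, not binding sites.

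*Msx3* (ENSMUSG00000025469; chromosome 7, 139626070 to 139629002, minus strand) was not counted in any PBS lung, was high with IL-33 and fell with LM8. The coordinates of the 5 genes are those of the deposited table, whose positions differ from GRCm38. *Msx3* was counted 440, 404 and 254 times in the 3 IL-33 mice and 47, 97 and 108 times in the 3 IL-33+LM8 mice, against 0 in all 3 PBS mice. Its expression was 2.72, 2.74 and 1.91 FPKM with IL-33 and 0.315, 0.635 and 0.483 FPKM with IL-33+LM8. All IL-33 mice were thus far above all IL-33+LM8 mice, and both groups were above PBS. Against 3 counts in each PBS library, *Msx3* was at least 132-fold higher with IL-33 and at least 25.7-fold higher with IL-33+LM8. IL-33+LM8 lungs held 19.5% of the mean FPKM of IL-33 lungs. The log2 fold change of IL-33+LM8 against IL-33 was -2.35 (SE 0.30, 95% interval -3.05 to -1.65, adjusted p = 0.00139, quasi-likelihood test of edgeR, adjusted after Benjamini and Hochberg over 16831 genes). Without the deepest libraries it was -2.27 (adjusted p = 0.023 from edgeR).

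*Mrgprg* (ENSMUSG00000050276; chromosome 7, 143317447 to 143320730, minus strand) showed the opposite order of the treated groups. It too had 0 counts in each PBS mouse. It was counted 109, 85 and 136 times with IL-33 and 295, 209 and 339 times with IL-33+LM8. In FPKM these were 0.797, 0.676 and 1.21 with IL-33 and 2.36, 1.61 and 1.80 with IL-33+LM8. Every IL-33+LM8 mouse was above every IL-33 mouse, and the group mean was 2.16 times that of IL-33 mice. Against the floor in PBS, expression was at least 40.7-fold higher with IL-33 and at least 87.8-fold higher with IL-33+LM8. *Mrgprg* was called higher with LM8, with a log2 fold change of 1.10 (SE 0.28, 95% interval 0.45 to 1.76, adjusted p = 0.0248 from edgeR). Without the deepest libraries the value was 1.08 and the call was lost (adjusted p = 0.13 from edgeR), and it was also lost without IL-33 replicate 1 (1.03) or 2 (0.94) or IL-33+LM8 replicate 1 (0.94) or 3 (1.16).

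*Adgrg7* (ENSMUSG00000022755; chromosome 16, 56544972 to 56616218, minus strand) was the most abundant of the 5 genes in IL-33 lungs and had a mean of 50.3% of that level with LM8. PBS mice had 0, 8 and 0 counts, the highest PBS count among the 5 genes. IL-33 mice had 776, 576 and 569 counts, or 4.21, 3.40 and 3.75 FPKM, and IL-33+LM8 mice had 185, 470 and 491 counts, or 1.10, 2.69 and 1.93 FPKM. The IL-33 and IL-33+LM8 mice did not overlap. The ratio to PBS was 275 with IL-33 (95% counting interval 134 to 613, from the 8 counts in PBS) and 138 with IL-33+LM8 (67.5 to 310). The log2 fold change with LM8 was -0.98 (SE 0.30, 95% interval -1.69 to -0.28, adjusted p = 0.0495 from edgeR), just under the minimum of 1 in size, so *Adgrg7* was not called. Without IL-33+LM8 replicate 2 it was -1.32 and was called (adjusted p = 0.014 from edgeR), and without the deepest libraries it was -0.91 (adjusted p = 0.21 from edgeR).

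*Fgf23* (ENSMUSG00000000182; chromosome 6, 127049865 to 127058371, plus strand) was nearly level among IL-33 mice and widely spread among IL-33+LM8 mice. PBS mice had 4, 0 and 0 counts and IL-33 mice had 432, 380 and 360, or 3.48, 3.34 and 3.53 FPKM. IL-33+LM8 mice had 62, 463 and 406 counts, or 0.546, 3.95 and 2.38 FPKM. One IL-33+LM8 mouse was therefore low, another was above all IL-33 mice, and the groups overlapped. The highest mouse was 1.06 times the lowest with IL-33 and 7.22 times the lowest with IL-33+LM8. The ratio to PBS was 308 with IL-33 (95% counting interval 126 to 1190, from the 4 counts in PBS) and 204 with IL-33+LM8 (84.4 to 797), where it was 130 without IL-33+LM8 replicate 2. The log2 fold change with LM8 was -0.58 (SE 0.58, 95% interval -1.94 to 0.77, adjusted p = 0.513 from edgeR), an interval that holds falls and rises alike. Without IL-33+LM8 replicate 1 the value was -0.12, and without replicate 2 it was -1.23.

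*Capn9* (ENSMUSG00000031981; chromosome 8, 125302850 to 125345470, plus strand) was raised in both treated groups, whose mice overlapped. It had no count in any PBS mouse. IL-33 mice had 318, 283 and 409 counts, or 1.91, 1.86 and 3.00 FPKM, and IL-33+LM8 mice had 193, 343 and 402 counts, or 1.26, 2.18 and 1.77 FPKM. Every treated mouse had at least 193 counts. Against the floor, expression was at least 125-fold higher than in PBS with IL-33 and at least 96.0-fold higher with IL-33+LM8. The log2 fold change with LM8 was -0.37 (SE 0.28, 95% interval -1.02 to 0.27, adjusted p = 0.373 from edgeR).

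**Figure D1:**
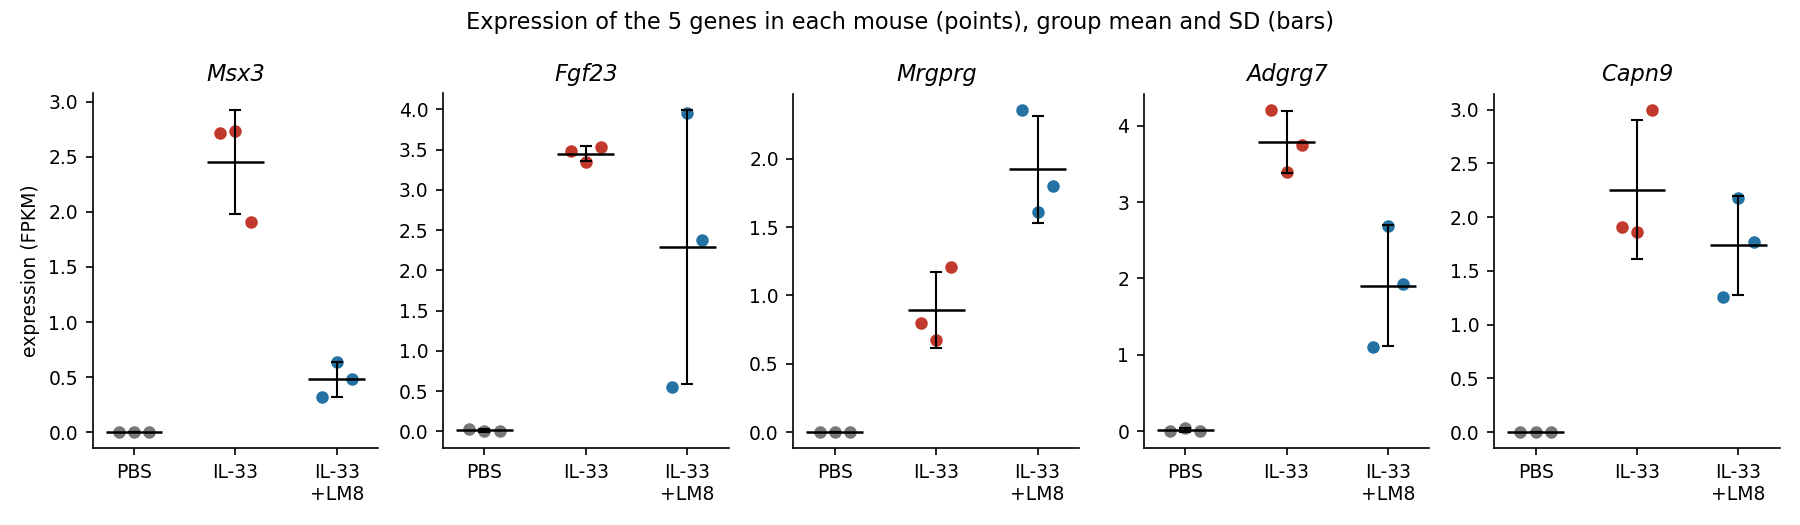
FPKM of the 5 genes in each of the 9 mice, with points for mice and black bars for the group mean and SD (n = 3 mice), each panel on its own linear axis. PBS mice sit at or near 0 for all 5 genes, the IL-33+LM8 mice lie below the IL-33 mice for *Msx3* and *Adgrg7* and above them for *Mrgprg*, and *Fgf23* spreads from 0.546 to 3.95 FPKM with LM8.

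Across the table, LM8 on top of IL-33 changed 907 of 16831 genes tested (5.39%), with 245 (1.46%) called higher and 662 (3.93%) called lower. Of the 5 genes, all of which were tested, *Mrgprg* was called higher and *Msx3* lower. A rise in either treated group sufficed for the choice of the 5, so these calls are a description. Genes were tested where FPKM averaged 0.5 or more over the 9 mice. *Msx3* reached this through its IL-33 mice and *Mrgprg* through its IL-33+LM8 mice. The treated groups did not overlap for *Msx3*, *Mrgprg* and *Adgrg7*, as for 43.2% of all genes tested. For these genes the two-sided exact permutation test gave p = 0.1, the smallest that 3 mice against 3 allow, and it gave p = 0.4 for *Fgf23* and *Capn9*. Against PBS, all 5 genes were above the control range in every treated mouse. Their choice fixed this in part, since it asked for a rise with IL-33 or with IL-33+LM8. Groups did not overlap for 63.4% of all genes in IL-33 against PBS and for 47.3% in IL-33+LM8 against PBS.

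**Figure D2:**
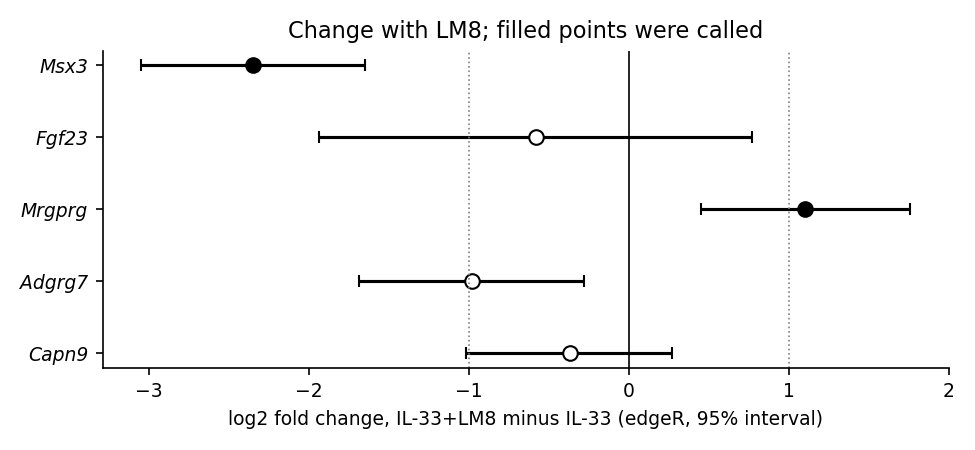
Log2 fold change of IL-33+LM8 against IL-33 for each of the 5 genes from edgeR, with bars for the 95% interval (3 mice against 3), filled points for called genes, and dotted lines at the minimum of 1 in either direction. *Msx3* at -2.35 and *Mrgprg* at 1.10 were called, and the intervals of *Fgf23* and *Capn9* cross 0.

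The order of the genes by level changed with LM8. In IL-33 lungs the order was *Adgrg7* (3.79 ± 0.403 FPKM, SD, n = 3), *Fgf23* (3.45 ± 0.0997), *Msx3* (2.45 ± 0.475), *Capn9* (2.26 ± 0.644) and *Mrgprg* (0.893 ± 0.279). The mice of *Adgrg7* and *Fgf23* overlapped, as did those of *Msx3* and *Capn9*. In IL-33+LM8 lungs the order was *Fgf23* (2.29 ± 1.70 FPKM, SD, n = 3), *Mrgprg* (1.93 ± 0.389), *Adgrg7* (1.91 ± 0.796), *Capn9* (1.74 ± 0.460) and *Msx3* (0.478 ± 0.160), and only the step from *Capn9* to *Msx3* was free of overlap. *Mrgprg* and *Msx3* thus traded the lowest place. Within a mouse, the log2 ratio of *Mrgprg* to *Msx3* FPKM was between -2.02 and -0.66 with IL-33 and between 1.34 and 2.91 with IL-33+LM8. IL-33+LM8 replicate 1 was the lowest of its group for *Msx3*, *Fgf23*, *Adgrg7* and *Capn9* and the highest for *Mrgprg*.

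The genes most like each of the 5 in profile were found by dividing every gene's FPKM by its sum over the 9 mice and adding up the smaller of both shares in each mouse, over 21229 genes with at least 100 counts in total. This overlap is a description across 9 mice that share the 3 groups. The 5 genes were chosen for few or no counts in PBS mice. PBS mice can therefore add little to any overlap, which holds down the medians over all genes given here and in the next paragraph. A high overlap set against such a median is thus in part a result of the choice and is no test of shared regulation. For *Msx3* the closest were *Mmp12*, a macrophage elastase (94.2%), *Ocstamp*, a protein of osteoclast and macrophage fusion (93.8%), and *Arg1*, arginase 1 (93.7%), against a median of 49.1% over all genes. Other genes were nearly as close, among them *Awat1* and *Rnase2a* (93.4% each) and *Cebpe* (92.7%), so the first 3 do not stand apart. *Mrgprg* was closest to *Retnlg* (91.7%), *Gm8221* (90.4%) and *Cxcr2*, a chemokine receptor of neutrophils (90.3%), with a median of 60.3%, and *Retnlg* and *Cxcr2* are also among the neutrophil markers described below. *Adgrg7* was closest to *Ptgdr*, a prostaglandin D2 receptor (94.3%), *Pdcd1*, which encodes PD-1 (94.1%), and *Gm29094* (93.6%), with a median of 60.8%.

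For *Fgf23* the closest genes were *Timp1*, an inhibitor of metalloproteinases (94.7%), *Il13ra2*, the decoy receptor of IL-13 (92.3%), and ENSMUSG00000120804 (91.8%), with a median of 58.0%. *Capn9* was closest to *Retnla*, which encodes RELMα (94.2%), *Ccr4*, a chemokine receptor of Th2 cells (93.3%), and *Il2ra*, the IL-2 receptor alpha chain (93.2%), with a median of 64.5%. Among the 5 genes themselves, *Fgf23* and *Adgrg7* overlapped most, at 90.1%, and *Msx3* and *Mrgprg* least, at 48.0%.

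**Figure D3:**
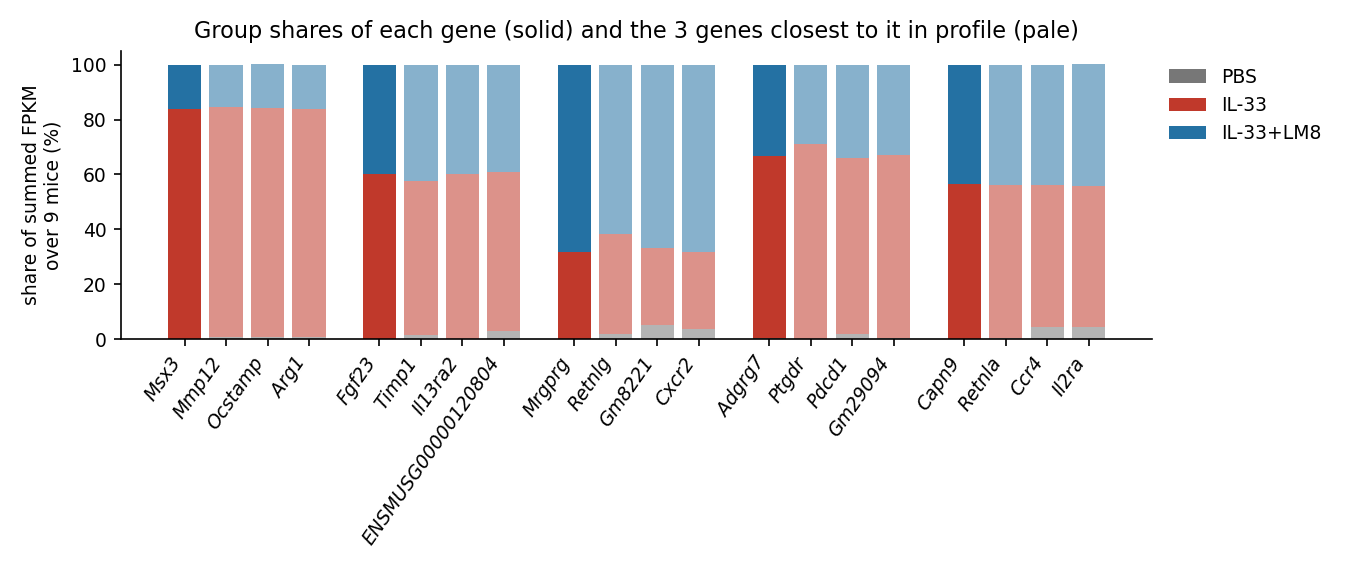
Share of each gene's summed FPKM over the 9 mice that fell in each group, for the 5 genes (solid bars) and the 3 genes closest to each in profile (pale bars). *Msx3* had 83.7% of its sum in IL-33 mice and *Mrgprg* 68.3% in IL-33+LM8 mice.

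Several cell types changed in marker expression along with these genes. In bulk lung, fewer cells of a type and less RNA per cell cannot be told apart. With LM8, 5 of 8 markers of alternatively activated macrophages, *Arg1* among them, were lower (median log2 fold change of the list -1.19), and the summed level of the list was 254 to 335 FPKM in PBS, 14900 to 16200 with IL-33 and 8420 to 12500 with IL-33+LM8. In the treated groups most of that sum was *Retnla* (means of 10200 and 7990 FPKM), which was not called with LM8 (log2 fold change -0.35). All 6 tested of 7 eosinophil markers were lower with LM8 (median -1.98), and the sum of the list went from 583 to 637 FPKM with IL-33 to 141 to 176 FPKM with LM8 (102 to 115 in PBS). Most of that sum was *Ear2*, with means of 83.2, 553 and 145 FPKM in PBS, IL-33 and IL-33+LM8. The eosinophil peroxidase gene *Epx* was untested and had 0 counts in PBS. Of 10 markers of ILC2 and Th2 cells, 4 were lower with LM8 (median -0.99), and the sum was 14.0 to 14.8 FPKM in PBS, 83.1 to 101 with IL-33 and 40.1 to 42.9 with LM8. The part of these cells in the fall of *Msx3*, or in the FPKM of *Adgrg7*, was not tested.

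Neutrophil markers moved in the direction of *Mrgprg*. With LM8, 5 of 7 were called higher and none lower (median log2 fold change 2.60), and their summed level was 26.3 to 32.9 FPKM in PBS, 188 to 211 with IL-33 and 871 to 1020 with IL-33+LM8. The mouse with the highest sum had the most *Mrgprg* among IL-33+LM8 mice (replicate 1, 1020 and 2.36 FPKM) and the least among IL-33 mice (replicate 2, 211 and 0.676 FPKM). The mean of each of the 7 markers was above 0 in all groups. The part of neutrophils in the *Mrgprg* level was not tested. Markers of lung epithelium and endothelium, at 33300 to 36100 FPKM in sum in PBS, were at 14500 to 15800 with IL-33 and 27400 to 29600 with LM8, with 0 of 8 called between the treated groups. Most of that sum was *Scgb1a1* and *Sftpc*. Their log2 fold changes with LM8 were 0.96 and 0.88, under the minimum size (adjusted p = 0.00037 and 0.00041 from edgeR). *Foxj1* and *Epcam* did not follow (-0.01 and -0.27, adjusted p = 0.95 and 0.12 from edgeR).

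Markers of the cells for which the 5 genes are known elsewhere were also measured. Osteocyte markers, beside *Fgf23*, summed to between 1.02 and 1.99 FPKM in all 9 mice, most of it *Phex* or *Dmp1*, while *Ibsp* had at most 4 counts and *Bglap* at most 5. Of gastric and intestinal epithelial markers, beside *Capn9* and *Adgrg7*, 3 of 12 passed the expression filter, and the sum was 5.69 to 15 FPKM in PBS, 20.1 to 27.1 with IL-33 and 17.0 to 37.0 with IL-33+LM8. The most abundant was *Tff2*, a trefoil peptide of mucous cells, at 6.08 ± 4.18 FPKM (SD, n = 3) in PBS, 13.3 ± 1.86 with IL-33 and 22.3 ± 8.30 with IL-33+LM8. It was higher with IL-33+LM8 than in PBS (log2 fold change 1.90) and was not called with LM8 against IL-33 (0.75). *Tff1*, a trefoil peptide of the stomach and of mucous cells, had 0 counts in PBS, 5.44 ± 0.973 FPKM (SD, n = 3) with IL-33 and 1.98 ± 1.08 FPKM with LM8, and was lower with LM8, as was *Gkn3*. The intestinal transcription factor genes *Cdx1* and *Cdx2* had at most 21 counts in any mouse. Sensory neuron markers, beside *Mrgprg*, summed to 0.55 to 3.83 FPKM, and *Calca*, the only one tested and a gene that pulmonary neuroendocrine cells also express, was higher with IL-33 (log2 fold change 1.96) and with IL-33+LM8 (1.62) than in PBS.

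Airway goblet cell markers rose in both treated groups, with 6 of 6 tested higher against PBS in each and *Clca1* the most abundant. Between the treated groups 1 of 6, *Muc5ac*, the main inducible airway mucin, was lower with LM8 (log2 fold change -1.04). Of 3 tested markers of mast cells and basophils none was called between the treated groups, and 1, *Gata2*, was lower with IL-33 than in PBS. *Cma1* and *Cpa3* were not called there and moved in opposite directions (log2 fold changes -0.99 and 0.95). *Gata2*, at 40.6 FPKM in PBS against 1.17 for *Cma1*, was far more abundant than the rest of the list, so its fall does not describe the list. Of 2 tested tuft cell markers, *Dclk1* was higher with IL-33 than in PBS, *Avil* was not called there (log2 fold change -0.22), and none was called with LM8. The untested markers were split. *Pou2f3* and *Trpm5* averaged 0.0679 and 0.0775 FPKM in PBS and 0.0184 and 0.0313 with IL-33, while *Gnat3* averaged 0.038 and 0.281 FPKM. The tuft cell list thus did not move together.

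Among the other Mas-related receptor genes, 10 of 20 listed were in the table and 4 passed the filter. Of all genes tested, 17.0% were called in IL-33 against PBS (10.8% higher and 6.24% lower) and 7.33% in IL-33+LM8 against PBS (5.87% higher and 1.46% lower). *Mrgpra2b* was counted 6, 6 and 9 times in PBS, 35, 33 and 16 times with IL-33 and 439, 294 and 598 times with IL-33+LM8. *Mrgpra2a* was counted 0, 6 and 6 times in PBS, 16, 15 and 8 times with IL-33 and 181, 164 and 208 times with IL-33+LM8. Most of their counts were thus in IL-33+LM8 lungs, and they passed the filter through that group, so their calls with IL-33+LM8 are a description and no test. *Mrgpra2b* was higher with IL-33 than in PBS (log2 fold change 2.11), *Mrgpra2a* was not called there (1.81), and both were higher with IL-33+LM8 than in PBS (5.87 and 5.44). With LM8 against IL-33 the log2 fold changes were 3.75 (SE 0.31) for *Mrgpra2b* and 3.62 (SE 0.30) for *Mrgpra2a*. The genes are close paralogs, and how shared reads were assigned is not stated in the sources used here.

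*Mrgpre*, the nearest gene of the table to the right of *Mrgprg* at a distance of 11370 bases, followed another order. Its FPKM was 0.347, 0.537 and 0.353 in PBS, 1.37, 1.45 and 1.47 with IL-33 and 0.912, 0.692 and 0.934 with IL-33+LM8. It was higher with IL-33 (log2 fold change 1.79) and with IL-33+LM8 (1.05) than in PBS, and with LM8 against IL-33 its log2 fold change was -0.76 (SE 0.18, adjusted p = 0.018 from edgeR), below the minimum size. *Mrgprg* and *Mrgpre* therefore stood in opposite order between the treated groups. *Mrgprf* was not called in any comparison. *Mrgprb1*, whose subgroup includes a receptor of mast cells, had at most 16 counts.

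**Figure D4:**
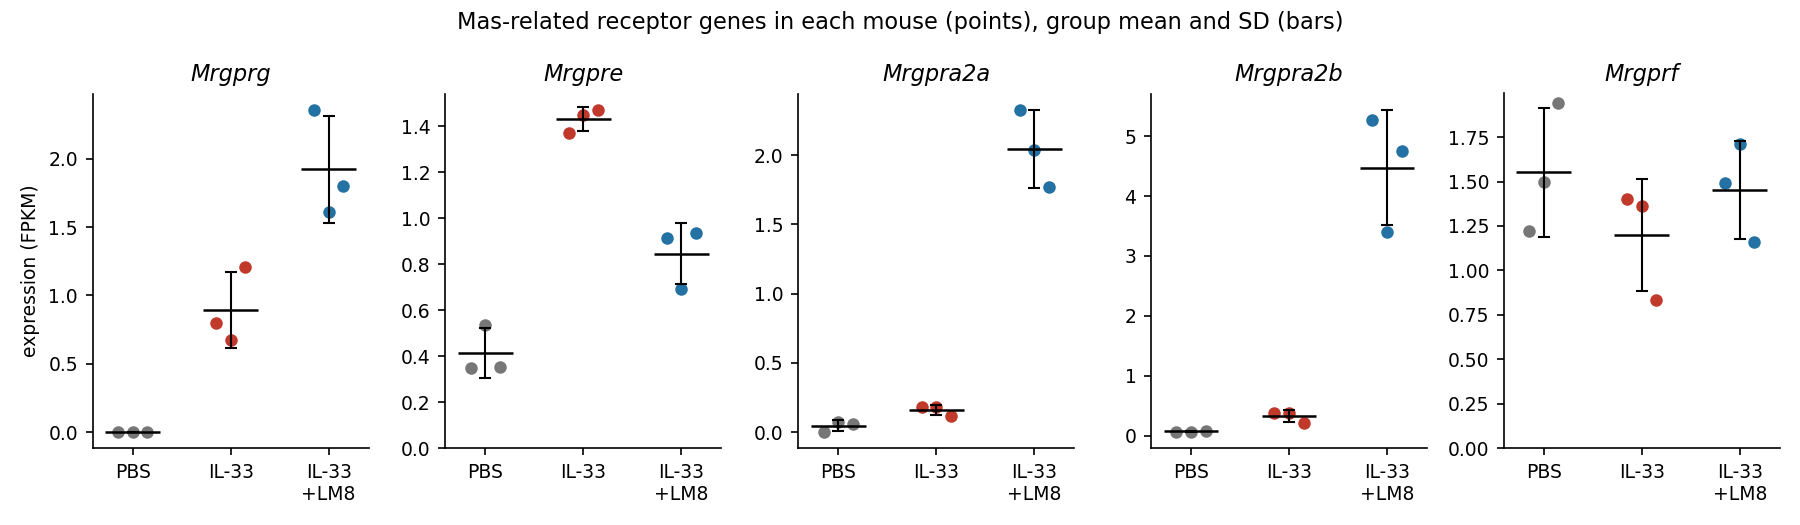
FPKM of *Mrgprg* and the 4 other Mas-related receptor genes tested, in each mouse (points), with group mean and SD (black bars, n = 3 mice), each panel on its own linear axis. *Mrgprg*, *Mrgpra2a* and *Mrgpra2b* are highest with IL-33+LM8, and *Mrgpre* is highest with IL-33.

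The pathway around FGF23 was listed with 24 further genes, of which 22 were in the table and 14 passed the filter. With IL-33 against PBS, 2 of the 14 were higher and 1 lower, where 10.8% and 6.24% of all genes tested were. *Vdr*, the vitamin D receptor, went from 1.45 ± 0.234 to 7.72 ± 0.201 FPKM (SD, n = 3), and *Fam20c*, a kinase of secreted proteins that phosphorylates FGF23, from 1.69 ± 0.464 to 7.28 ± 0.282 FPKM, with log2 fold changes of 2.41 and 2.10. *Fgfr4*, a receptor for FGF hormones, fell by 1.80 on the log2 scale. Levels with LM8 were 2.85 ± 0.581 FPKM for *Vdr* and 2.53 ± 0.328 FPKM for *Fam20c*. With LM8 against IL-33, 3 of the 14 were lower and none higher (median log2 fold change of the 14 -0.30), namely *Fam20c* (log2 fold change -1.52), *Vdr* (-1.44) and *Phex*, an endopeptidase of bone (-1.07). Of all genes tested, 3.93% were lower and 1.46% higher there. *Fgfr4* and *Phex* were lower with IL-33+LM8 than in PBS (-1.09 and -1.04).

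*Dmp1*, a bone matrix protein gene that failed the filter, had 12, 4 and 4 counts in PBS, 57, 41 and 37 with IL-33 and 84, 240 and 249 with IL-33+LM8. Its 3 groups did not overlap, and IL-33+LM8 replicate 1 was the lowest of its group, as for *Fgf23*. The co-receptor of FGF23, Klotho (*Kl*), was at 0.121 FPKM in PBS, 0.0843 with IL-33 and 0.132 with IL-33+LM8 and did not pass the filter. *Slc34a2*, the phosphate transporter of alveolar epithelium and the most abundant gene of the list, was not called, with means of 308, 274 and 345 FPKM. The genes for renal vitamin D enzymes *Cyp27b1* and *Cyp24a1* had at most 29 and 8 counts.

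**Figure D5:**
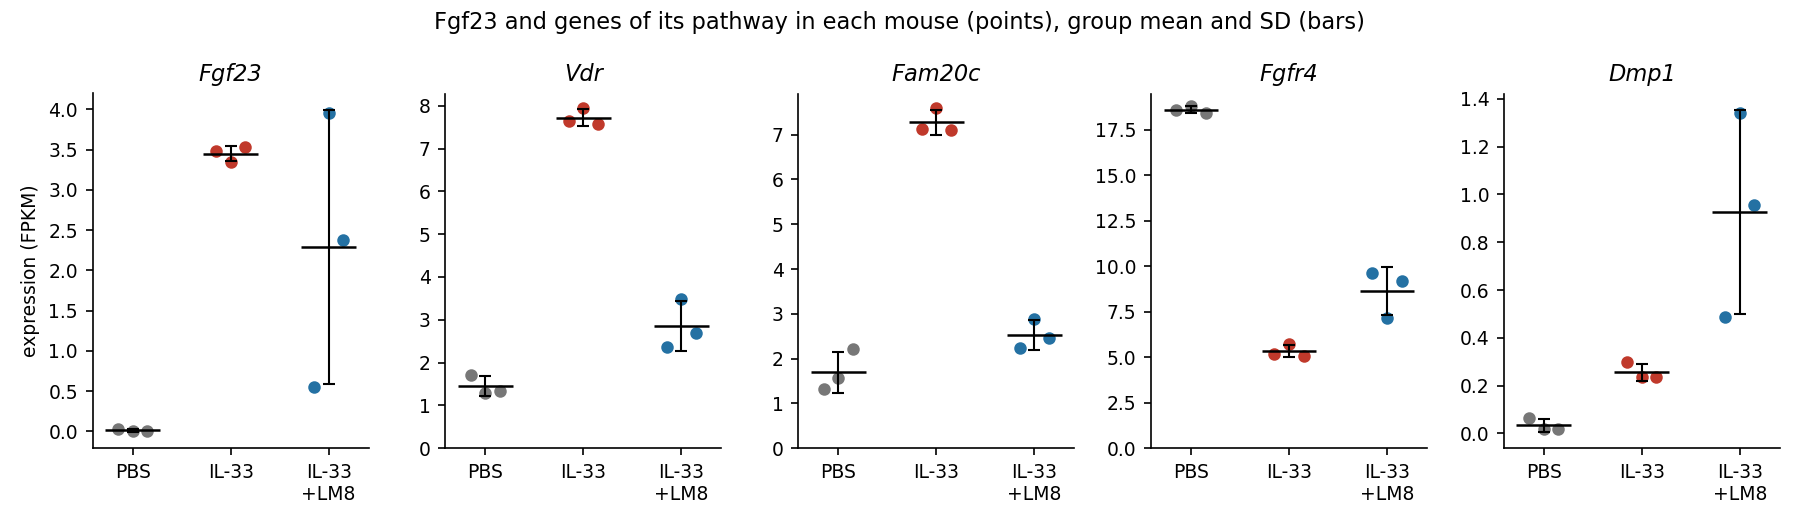
FPKM of *Fgf23*, *Vdr*, *Fam20c*, *Fgfr4* and *Dmp1* in each mouse (points), with group mean and SD (black bars, n = 3 mice), each panel on its own linear axis. *Vdr* and *Fam20c* are highest with IL-33, *Fgfr4* is highest in PBS and *Dmp1* is highest with IL-33+LM8.

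Few relatives of the other genes were called. Of 15 calpains and calpastatin, 10 were tested, none was called against PBS in either treated group, and 1, *Capn6*, was lower with LM8 against IL-33 (log2 fold change -1.04, SE 0.22). The most abundant was the small subunit gene *Capns1*, with means between 93.5 and 107 FPKM. None of the 5 tested adhesion receptor genes of the *Adgrg* group was called in any comparison, *Adgrg1* being the most abundant at 13.7 to 18.5 FPKM in the group means. Smaller changes with IL-33 against PBS went both ways (adjusted p of 0.007 or less from edgeR). They were 0.92 for *Adgrg5*, 0.68 for *Adgrg2*, -0.59 for *Adgrg6* and -0.44 for *Adgrg1* on the log2 scale. *Adgrg3* was at 0.22 (adjusted p = 0.27 from edgeR). In the Msh and Dlx homeobox family, 7 of 8 further genes were in the table and only *Msx1* passed the filter, with means of 0.725, 0.763 and 0.748 FPKM in PBS, IL-33 and IL-33+LM8. In these 3 families the median log2 fold change lay between -0.05 and 0.22 in every comparison, and over all genes tested it was within 0.01 of 0.

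Of the genes flanking the 5 in the table, *Mrgpre* alone was called in a comparison. On either side of *Msx3*, *Zfp511* was not called in any comparison and *Caly* was untested, with at most 198 counts. *Tigar*, 3708 bases from *Fgf23*, and *Osbpl5*, 6725 bases from *Mrgprg*, were not called, nor were *Tfg* and *Tmem45a* around *Adgrg7* or *Agt* and *2310022B05Rik* around *Capn9*. With IL-33 against PBS some of them changed by less than the minimum size (adjusted p of 0.0038 or less from edgeR). The log2 fold changes were -0.83 for *Osbpl5*, -0.76 for *2310022B05Rik*, 0.56 for *Tmem45a* and 0.47 for *Tfg*. Those of *Tigar* and *Agt* were 0.04 and -0.33 (adjusted p = 0.79 and 0.83 from edgeR). *Gm43125*, left of *Fgf23*, had at most 4 counts. *Gm15693*, which overlaps *Adgrg7*, had at most 8 counts, and whether reads were assigned by strand is not stated in the sources used here. In the transcripts of GENCODE M21, none of the 31-base words of *Msx3*, *Mrgprg* and *Adgrg7* occurs in another gene, while 2 of 1784 in *Fgf23* and 2 of 2441 in *Capn9* do.

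Genes with such a pattern were few in the table. With at most 3 counts in each PBS mouse and at least 10 in every IL-33 or every IL-33+LM8 mouse, 107 genes (0.309%) were found, 48 of them protein coding and 36 lncRNA. Of these, 71 reached 10 counts in all IL-33 mice only, 13 in all IL-33+LM8 mice only and 23 in both. *Msx3*, *Mrgprg* and *Capn9* were among them, while *Fgf23* and *Adgrg7* had more than 3 counts in 1 PBS mouse. With up to 8 counts allowed in PBS, a limit set after the data were seen, 273 genes qualified, all 5 included. By IL-33 level the 10 highest of the 107 were *Tff1* (5.44 FPKM), *5S_rRNA* (3.03), *Retnlb* (2.93), *Ighv2-4* (2.83), *Msx3* (2.45), *Gm43351* (2.27), *Capn9* (2.26), *Il13ra2* (2.14), *Igkv2-116* (1.85) and *Ighv11-1* (1.78). *Msx3* and *Capn9* were thus among the most expressed genes of this kind, and *Mrgprg* ranked 22.

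Of these 107 genes, 17 were tested with LM8 against IL-33, with 2 called higher and 9 lower (median log2 fold change -1.45). These were 11.8% and 52.9% of the 17, against 1.46% and 3.93% of all genes tested. Beside *Mrgprg*, the gene called higher was *Prok2*, which encodes prokineticin 2 and was named after its values were seen. It passed the filter through its IL-33+LM8 mice. The 107 were picked on these same counts, so their calls between the treated groups are no test of the pattern. *Prok2* had 0 counts in PBS and was at 0.0224 ± 0.0197 FPKM (SD, n = 3) with IL-33 and 2.53 ± 0.184 FPKM with IL-33+LM8. *Retnlb*, which encodes RELMβ, was at 2.93 ± 0.352 FPKM with IL-33 and 2.23 ± 0.419 FPKM with LM8 and was not called.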

How the data were processed

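RNA-seq was done on lung RNA of 9 mice, and mice were grouped by the submitters' labels, which are also the source for their being separate mice. The authors deposited a single table of raw counts and FPKM per gene and mouse. The submitters' processing notes name Bowtie 0.12.2, HISAT2 2.0, StringTie 1.3.0 and mm10, but only 578 of 32643 genes matched by ID had the same chromosome, start and end as in GENCODE M21 on GRCm38, so gene positions are those of the table. The counting tool and strand setting are not given in the sources used here.

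The 5 genes and all gene lists were chosen with earlier results of these data known. The 3 comparisons share mice: each group serves in 2 of them. Each was fitted on its 6 mice with edgeR 4.0.16 (R 4.3.3, TMM, quasi-likelihood) over genes whose FPKM averaged 0.5 or more over 9 mice and which had a count in the 6. A gene was called, or said to rise, fall or be higher or lower, where its Benjamini-Hochberg adjusted p was under 0.05 and its log2 fold change 1 or more in size. SE is the fold change divided by the square root of F. Single genes were also tested by two-sided exact permutation of log2(FPKM + 1). Folds are ratios of mean FPKM, or lower bounds against 3 counts in each PBS library. Genes named from a list were taken from the 4 called genes with the largest change and the most abundant gene, and others were named after their values were seen. Alternatives were DESeq2 1.42.0, limma 3.58.1, other filters, thresholds and scalings, a block and each mouse left out. Same-numbered PBS and IL-33+LM8 mice deviated together (correlations 0.307 to 0.672), though no label says that the numbers pair mice, and in the other comparisons they did not. p-values measure the spread between these mice. Intervals of counts pool the mice of a group and cover counting error only, not the spread between mice.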

Additional observations from a re-analysis of the deposited data

How the results depend on the processing

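The fall of *Msx3* with LM8 against IL-33 kept its direction and call in the 16 alternatives in which it was tested, with log2 fold changes between -2.60 and -1.22 and adjusted p between 1.1e-13 and 0.023. *Mrgprg* stayed higher in all 16 of its alternatives (adjusted p between 0.0014 and 0.13) but lost its call in 6, on log2(FPKM + 1) with limma, where it was 0.63 (adjusted p = 0.02), without the deepest library of each group, chosen after seeing the data, where it was 1.08, and without IL-33 replicate 1 or 2 or IL-33+LM8 replicate 1 or 3. With each mouse left out it lay between 0.94 and 1.39, *Adgrg7* between -1.32 and -0.71, *Msx3* between -2.60 and -2.13, *Fgf23* between -1.23 and -0.12 and *Capn9* between -0.58 and -0.11. *Adgrg7* (adjusted p between 0.0027 and 0.23) was called with limma on log2(FPKM + 0.1), at -1.03, with no minimum fold, at -0.98, and without IL-33+LM8 replicate 2. *Fgf23* and *Capn9* were called in none of 17 alternatives.

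The number of the 5 genes called higher, 1, became 0 on log2(FPKM + 1), under a filter of mean FPKM 1 or more, where *Msx3* and *Mrgprg* are not tested, and without the deepest libraries, and was 0 to 1 with each mouse left out. The number called lower, 1, became 2 with limma on log2(FPKM + 0.1) or without a minimum fold and 0 under the filter of mean FPKM 1 or more, and was 1 to 2 with each mouse left out.

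Genes called numbered 2865 and 1233 in the comparisons of IL-33 and IL-33+LM8 with PBS, and 907 between the treated groups. They became 1741, 588 and 439 with limma on log2(FPKM + 1) and 9193, 4997 and 4459 with no minimum fold, and ranged over 2729 to 2918, 1073 to 1297 and 780 to 963 with each mouse left out. List genes called between the treated groups went from 29 to 53 with no minimum fold. The 107 genes near 0 in PBS became 30 at 30 or more counts in the raised group and 273 at up to 8 counts in PBS, and 118 to 163 with a mouse left out, the highest without PBS replicate 2. For this number the directions were fixed by the rule. A stricter limit can only lower or keep it, and a looser limit or a mouse left out can only raise or keep it. The ratio to PBS with IL-33 ranged over 205 to 313 for *Fgf23*, lowest without PBS replicate 2 or 3, and over 183 to 289 for *Adgrg7*, lowest without PBS replicate 1 or 3. With IL-33+LM8 it ranged over 130 to 282 for *Fgf23* and 92.2 to 167 for *Adgrg7*. These ranges do not include the settings without PBS replicate 1 for *Fgf23* or without PBS replicate 2 for *Adgrg7*. No PBS count remains there, so the ratio has no upper limit.

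With the replicate number as a block, the log2 fold change with LM8 was -2.38 for *Msx3*, 1.13 for *Mrgprg* (adjusted p = 0.044), -1.07 for *Adgrg7* (adjusted p = 0.076), -0.94 for *Fgf23* and -0.38 for *Capn9*, and no call of the 5 genes changed. Same-numbered mice correlated between -0.397 and 0.222 for IL-33 and IL-33+LM8 and between -0.419 and 0.28 for PBS and IL-33, so the block is not a pairing there. At 3 mice per group, levels near 0 in PBS rest on at most 8 counts in a library, and a change of *Fgf23* or *Capn9* with LM8 was not detectable within their intervals.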
